A study of Mus musculus with 3 samples.

Results

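Oxidative phosphorylation subunits are the proteins of the inner mitochondrial membrane that pass electrons to oxygen and use the resulting proton gradient to make ATP. Their transcripts were measured in 3 populations of mouse CD8+ T cells. The members were the genes whose symbol begins with Nduf followed by a, b, s, v or c (complex I), Uqcr (complex III), Cox4 to Cox8 (complex IV) or Atp5 (complex V), among probe sets that carry 1 gene symbol. The rule found 52 of the 10191 genes measured: 24 of complex I, 5 of complex III, 10 of complex IV and 13 of complex V. The rule uses symbols alone. It reached no assembly factor of complex I, but it did reach Cox7a2l, which helps to join complexes III and IV into supercomplexes and is related to a subunit rather than being part of the core enzyme. In RefSeq, 84 protein-coding symbols fit these prefixes without the assembly factors. Of these, 52 were the members, 6 occurred only in probe sets with several symbols, and 26, Cox5a and Uqcrfs1 among them, were not analysed here.

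In background, complex I takes electrons from NADH, complex III passes them from ubiquinol to cytochrome c, complex IV reduces oxygen, and complex V, the ATP synthase, is driven by the returning protons. Each complex joins catalytic core subunits to small accessory subunits that are coded in the nucleus. Naive T cells are quiescent and rely on respiration, activated effector cells add rapid glycolysis, and memory-phenotype CD8+ T cells are known for a large respiratory reserve.

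Spleen and lymph nodes of naive C57BL/6 mice were the source of the cells. These mice carry a GFP reporter of the chemokine receptor CXCR3 and are called CXCR3-GFP Reporter mice or, in the RNA protocol, CIBER mice. The cells were stained for CD44, CD62L and CD8 and sorted into naive, CXCR3+ innate and CXCR3- innate populations of CD8+ T cells, where innate is the submitters' word and the gates behind it are not given in the sources used here. RNA of each population came from about 3 to 5 mice. Each population was hybridised to 1 array, so no difference below has a replicate check, a standard error or a p-value, and higher and lower refer to these 3 arrays alone. Age and sex of the animals are not given in the sources used here. In bulk RNA, fewer cells of a type and less RNA per cell cannot be told apart.

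Values are log2 RMA values, on which a difference of 1 is 2-fold. A probe set is in the table only if it reached 7 on at least 1 array, and a value equal to several decimals on all 3 arrays was frequent, at 34.6% of all genes. Levels of different probe sets cannot be compared. The array medians over all genes were 7.63 on the CXCR3+ innate array, 7.63 on the CXCR3- innate array and 7.65 on the naive array, but the 90th percentile was 8.83, 8.77 and 8.94, so brighter genes as a whole read lowest in CXCR3- innate cells. All 5 measured CD8+ T cell markers of 8 listed lay above the array median on every array, and 4 of them, all but Cd3e, were lowest on the CXCR3- innate array. Cd8a read 10.14, 9.77 and 10.43, Cd8b1 11.31, 11.29 and 11.54, Cd3d 8.83, 8.31 and 8.83, Cd3e 11.45, 11.51 and 11.81, and Cd3g 10.72, 10.17 and 11.10 in that order. Of 3 sort genes, 2 were measured. Cd44 read 8.30, 7.88 and 7.24, so CXCR3+ and CXCR3- innate cells were 1.06 and 0.64 above naive cells. Cxcr3 read 7.97, 7.82 and 7.57, a difference of 0.15 between the innate populations. None of 8 B cell and none of 6 erythroid markers was among the genes measured. Of the other marker lists, 2 of 5 for CD4+ and regulatory T cells, 2 of 5 for natural killer cells, 4 of 9 for myeloid cells and 1 of 4 for plasma cells were, with list medians between 7.06 and 8.79 on the arrays. The summed log2 level of the measured markers was highest on the CXCR3- innate array in 3 of these lists. It was 14.5, 15.1 and 14.8 in CXCR3+ innate, CXCR3- innate and naive cells for CD4+ and regulatory T cells, 14.3, 14.4 and 14.1 for natural killer cells, and 30.4, 30.8 and 30.5 for myeloid cells. Ctla4 read 7.23, 7.76 and 7.51, Foxp3 7.30, 7.36 and 7.30, and Ncr1 7.19, 7.43 and 7.19. The other natural killer marker, Fcer1g, was highest in CXCR3+ innate cells, at 7.07, 6.98 and 6.93. Of the myeloid markers, S100a9 read 8.04, 8.31 and 8.09 and Adgre1 7.48, 7.58 and 7.48. Cd68 read 7.66, 7.74 and 7.74, and Itgam was equal at 7.18. The part of other cells in the values below was not tested.

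CXCR3- innate cells had the lowest values of most members. In 33 of 52 members the CXCR3- innate array was strictly below both other arrays, which held for 20.7% of all genes. After cyclic loess, which breaks the equal values, it held for 37 members and for 42.0% of all genes. Set against naive cells, 38 members were lower in CXCR3- innate cells, 2 were higher and 12 were equal, while 36.3% of all genes were lower and 21.6% were higher. The few higher members rest on the equal values: the counts lower and higher were 35 and 16 after quantile normalization, 39 and 13 after cyclic loess, and 35 and 17 after centring each array on its median. Of all genes, 57.7%, 45.2% and 67.6% were higher under these scalings. Differences of at least 0.1 depended less on the scaling. Such a difference was downward in 31 members and upward in 1 as deposited, and in 27 and 4, 30 and 1, and 30 and 1 in the same order, where 24.4% and 9.76% of all genes differed so as deposited. The median difference of the members was -0.22 and that of all genes was 0. The differences were mostly small: 2 members, Cox7b of complex IV and Atp5md of complex V, were at least 2-fold lower, and none was 2-fold higher. A gene was counted here only if its higher value reached the median over all genes on that array, and 0.226% of all genes were lower and 0.0196% higher by this rule, 23 and 2 genes in number, against 9 and 2 after quantile normalization. At 1.5-fold, Ndufv2 of complex I and Uqcrh of complex III joined them, giving 4 of 52 members against 1.60% of all genes. Quantile normalization brought the median to -0.11 and left no member 2-fold lower.

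**Figure D1:**
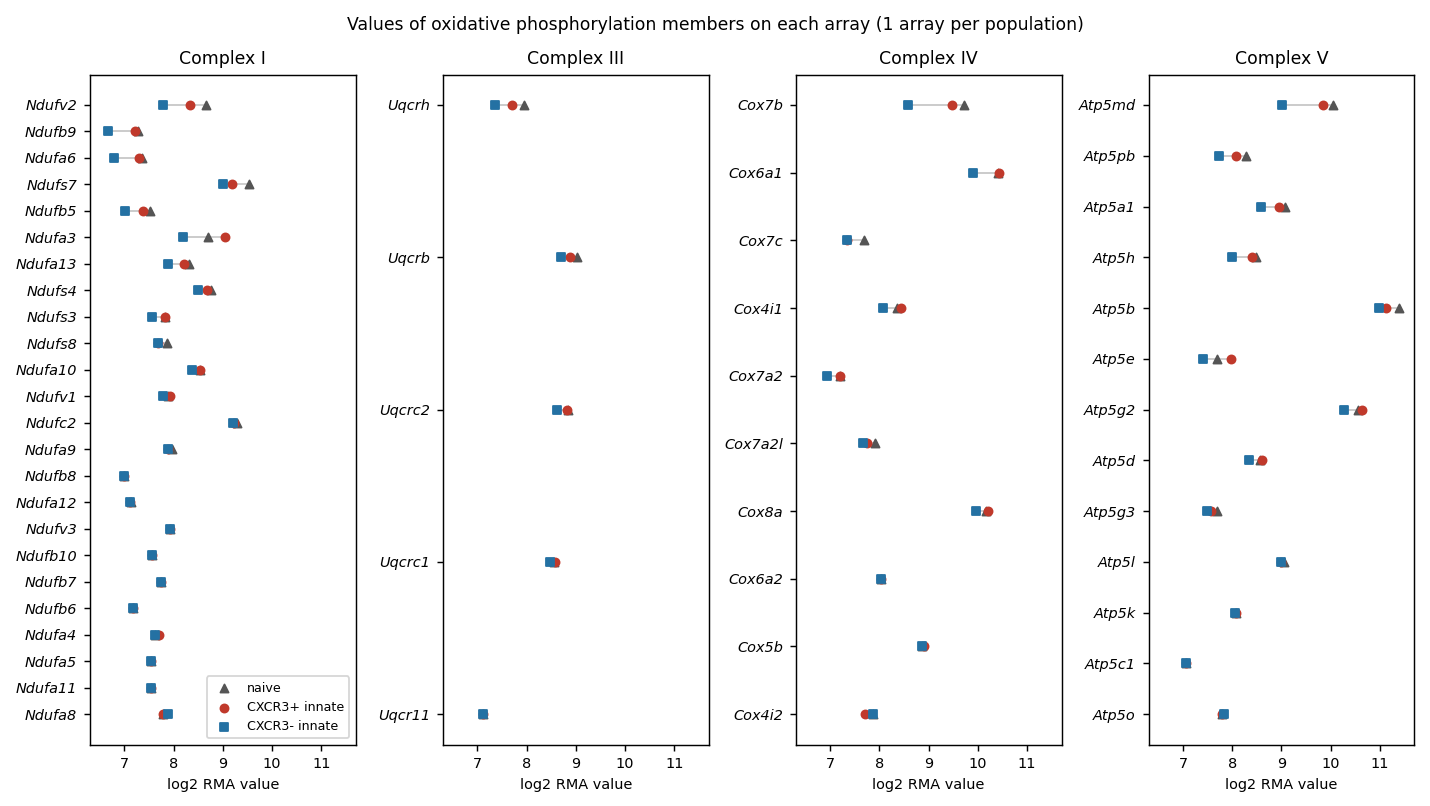
Log2 RMA values (x axis) of the 52 members (y axis, ordered within each complex by CXCR3- innate minus naive) on the array of each population; a grey line joins the values of a gene. Blue squares (CXCR3- innate) lie to the left in most genes, while red circles (CXCR3+ innate) and grey triangles (naive) lie close together.

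Cox7b, a small subunit that cytochrome c oxidase needs for its assembly, showed the largest difference of any member. It read 9.47 on the CXCR3+ innate array, 8.58 on the CXCR3- innate array and 9.72 on the naive array, so CXCR3- innate cells were 2.21-fold lower than naive cells. Atp5md, a small subunit in the membrane part of the ATP synthase, read 9.85, 9.0 and 10.04 in the same order and was 2.06-fold lower in CXCR3- innate than in naive cells. In both genes the CXCR3+ innate value lay near the naive value and the CXCR3- innate value stood apart. Both were near the threshold: after quantile normalization the differences were -0.99 and -0.89, and after cyclic loess Atp5md was at -0.97.

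The stretches of 200 bases before the annotated starts of the member with the largest CXCR3- innate minus naive difference in each complex, and of Cox6a1 and Ndufa11 as members that hold the letters of the NRF1 motif, are shown to let these upstream regions be compared. NRF1 and the ETS factor GABP are known regulators of respiratory genes. The sequences are from RefSeq, build GRCm38.p6, written 5′ to 3′ on the gene's strand, with matches to any of 5 motifs in capitals. The motifs, searched on both strands, were GCGCANGCG for NRF1, CCGGAAG for GABP and other ETS factors, AAGATGGCG for YY1, TATAAA for the TATA box and GGGCGG for Sp1. A match is only a match of letters.
Cox7b, chrX:106015500-106015699, plus strand: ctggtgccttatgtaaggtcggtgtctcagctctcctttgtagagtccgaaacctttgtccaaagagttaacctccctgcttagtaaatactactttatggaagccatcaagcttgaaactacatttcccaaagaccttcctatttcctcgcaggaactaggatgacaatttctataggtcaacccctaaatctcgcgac
Atp5md, chr19:47090648-47090847, minus strand: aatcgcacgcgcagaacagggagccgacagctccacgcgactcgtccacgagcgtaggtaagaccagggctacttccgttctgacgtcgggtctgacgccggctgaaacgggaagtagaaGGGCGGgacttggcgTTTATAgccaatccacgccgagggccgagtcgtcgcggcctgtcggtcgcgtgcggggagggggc
Ndufv2, chr17:66101560-66101759, minus strand: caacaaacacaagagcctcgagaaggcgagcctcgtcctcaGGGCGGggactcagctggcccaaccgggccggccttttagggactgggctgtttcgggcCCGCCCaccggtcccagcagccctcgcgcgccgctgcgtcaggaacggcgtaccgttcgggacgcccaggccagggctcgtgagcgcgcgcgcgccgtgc
Uqcrh, chr4:116075071-116075270, minus strand: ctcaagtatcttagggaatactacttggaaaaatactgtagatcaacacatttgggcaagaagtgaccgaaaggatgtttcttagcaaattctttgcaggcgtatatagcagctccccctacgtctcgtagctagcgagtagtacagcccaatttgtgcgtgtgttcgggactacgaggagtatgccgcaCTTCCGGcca
Cox6a1, chr5:115348959-115349158, minus strand: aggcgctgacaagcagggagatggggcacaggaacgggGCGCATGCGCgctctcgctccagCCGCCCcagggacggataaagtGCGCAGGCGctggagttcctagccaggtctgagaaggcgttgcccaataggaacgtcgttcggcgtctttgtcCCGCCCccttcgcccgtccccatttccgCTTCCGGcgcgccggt
Ndufa11, chr17:56717562-56717761, plus strand: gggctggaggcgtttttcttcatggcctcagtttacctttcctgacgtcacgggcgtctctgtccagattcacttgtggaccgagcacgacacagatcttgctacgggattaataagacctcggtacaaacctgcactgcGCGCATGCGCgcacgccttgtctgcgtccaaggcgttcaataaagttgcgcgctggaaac

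The Cox7b stretch held none of these motifs. That of Atp5md held a match to the Sp1 motif and a reversed match to the TATA letters, that of Ndufv2 held 2 matches to the Sp1 motif, and that of Uqcrh a reversed ETS match 10 bases before the start. In Cox6a1 and Ndufa11, matches to the NRF1 motif on both strands overlapped in the same 10 letters. Windows from 250 bases before to 50 after a start were found for 45 of the 52 members, 48 windows in all. The NRF1 letters occurred in 33.3% of the members' windows, in 11.2% of 9818 windows of measured genes and in 6.25% of all 32851 windows of the table. The ETS letters occurred in 27.1%, 14.8% and 8.86%, and the YY1 letters in 6.25%, 2.64% and 1.40%. The TATA letters were in 10.4% of the members' windows, 9.93% of those of measured genes and 13.6% of all, and the Sp1 letters in 43.8%, 54.7% and 35.7%. Median GC content was 56.8%, 59.0% and 52.7% in that order.

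Members were then split by the letters in their windows, 15 with NRF1 letters and 30 without. The median CXCR3- innate minus naive was -0.02 in the members with the letters, of which 8 were below 0, 5 equal and 2 above. The 5 equal ones, from Atp5c1 at 7.06 to Ndufb10 at 7.56, all lay below the array medians. In the members without, the median was -0.26, with 25 below 0 and 5 equal. The members with ETS letters, 13 in number, had a median of -0.21 and the 32 without one of -0.18. For the Sp1 letters the medians were -0.27 in 20 members with and -0.09 in 25 without, for the TATA letters -0.51 in 5 and -0.18 in 40, and for the YY1 letters -0.28 in 3 and -0.18 in 42. The contrast by NRF1 letters was thus no larger than that by TATA letters. Of the 15 members with NRF1 letters, Ndufa6 had the largest difference at -0.58, followed by Cox6a1 at -0.50 and Atp5h at -0.49. These are descriptions across genes. The groups of members were not matched for level, with which the size of a difference went, and the difference between them was not tested.

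**Figure D2:**
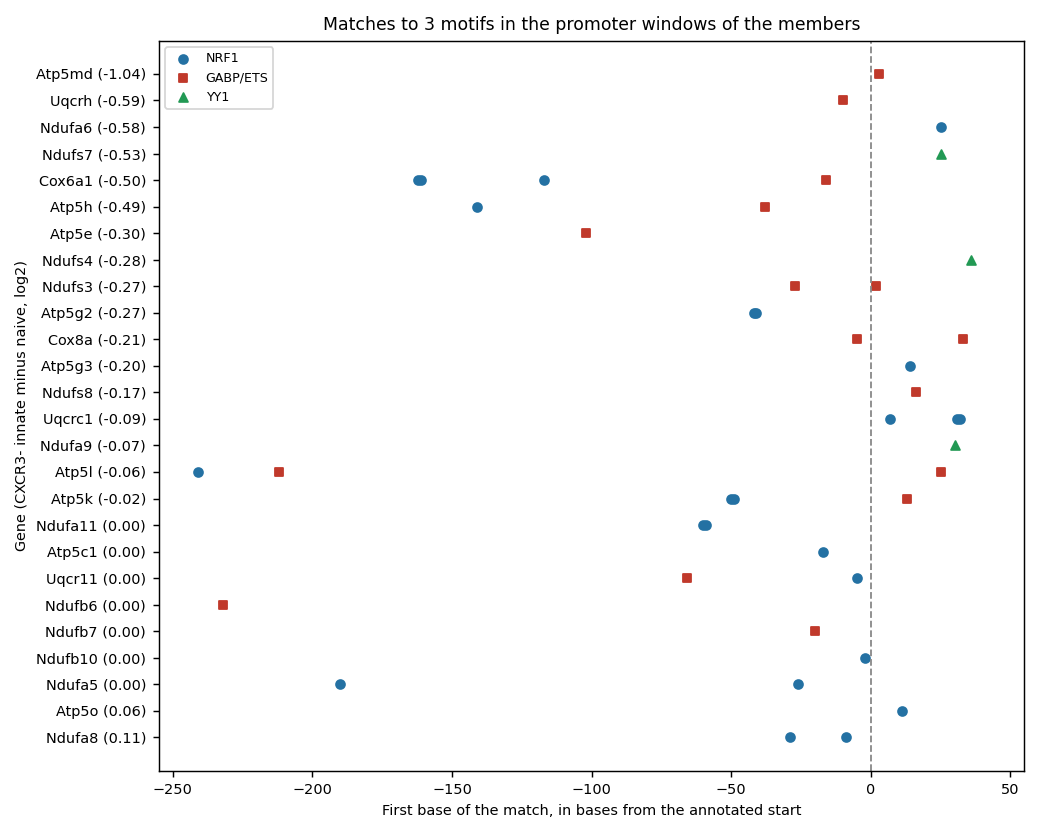
Position of matches to the NRF1 (blue circles), GABP/ETS (red squares) and YY1 (green triangles) letters on either strand, in bases from the annotated start (x axis, dashed line at the start), for the members with at least 1 match (y axis, with CXCR3- innate minus naive in brackets). Most matches lie within 60 bases of the start; Cox7b and Ndufv2 had no match to these 3 motifs and are not drawn.

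Complex I had the median nearest to 0 of the 4 complexes. Their median CXCR3- innate minus naive was -0.10 over 24 members, and -0.03 after quantile normalization. As deposited, 16 were below 0, 7 equal and 1, Ndufa8, above. The array of CXCR3- innate cells was the lowest in 12 of the 24. Level differed between the complexes: 62.5% of complex I members reached the array median, the lowest share of the 4. Over the members at or above the array median in this comparison, the median was -0.16 for complex I. It was -0.27 for III, -0.25 for IV and -0.29 for V. Complex I was thus still nearest to 0, but the part of level in this order was not tested. Ndufv2, an iron-sulphur subunit of the module that oxidises NADH, read 8.34 on the CXCR3+ innate array, 7.78 on the CXCR3- innate array and 8.67 on the naive array, a 1.85-fold lower value in CXCR3- innate than in naive cells. Its partner Ndufv1, which binds the flavin that accepts electrons from NADH, read 7.93, 7.78 and 7.88, and the accessory Ndufv3 was equal at 7.92 on all arrays. Ndufs4, an accessory subunit of the same module, was at -0.28 in CXCR3- innate minus naive.

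Among the subunits that carry electrons on to ubiquinone, Ndufs7 read 9.19, 9.01 and 9.54 in CXCR3+ innate, CXCR3- innate and naive cells. Here both innate populations were below naive cells, by 0.35 and 0.53 on the log2 scale. Ndufs8, another iron-sulphur subunit, was at 7.69 in both innate populations and 7.86 in naive cells. Ndufs3, a core subunit of the same arm, was equal in CXCR3+ innate and naive cells at 7.83 and read 7.55 in CXCR3- innate cells. For CXCR3- innate minus naive, the median was -0.22 over the 4 members counted here in this module, Ndufa5 included. It was -0.10 over the 5 counted in the NADH module, Ndufa12 included. Ndufa6 and Ndufa9 were counted in neither module.

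The remaining 15 members with complex I symbols ranged from -0.61 to 0.11 in CXCR3- innate minus naive. Ndufb9 read 7.21 on the CXCR3+ innate array, 6.67 on the CXCR3- innate array and 7.28 on the naive array, and Ndufa6 read 7.29, 6.79 and 7.36. In both genes CXCR3- innate cells stood apart and the other populations were within 0.1 of each other, but all values lay below the array medians. Ndufa3 was the only member of complex I that was 1.5-fold higher in CXCR3+ than in CXCR3- innate cells by the rule with the level floor. It read 9.05, 8.18 and 8.69, so the innate populations lay on opposite sides of naive cells. Ndufb5 was at -0.52 and Ndufa13, also known as GRIM-19, at -0.42 in CXCR3- innate minus naive. Ndufa10, Ndufc2 and Ndufa9 differed less, at -0.16, -0.09 and -0.07. Ndufa4, now known to sit in complex IV, read 7.69 in CXCR3+ innate cells and 7.63 in both other populations. Ndufa11, Ndufb10, Ndufb6 and Ndufb7 were equal on all arrays, as was Ndufa5 of the module above, and Ndufa8 was the average of probe sets at 0.21 and 0. Ndufb8, the member with the lowest mean in complex I, read 6.99, 6.99 and 7.0, just at the level that a probe set had to reach to be in the table.

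**Figure D3:**
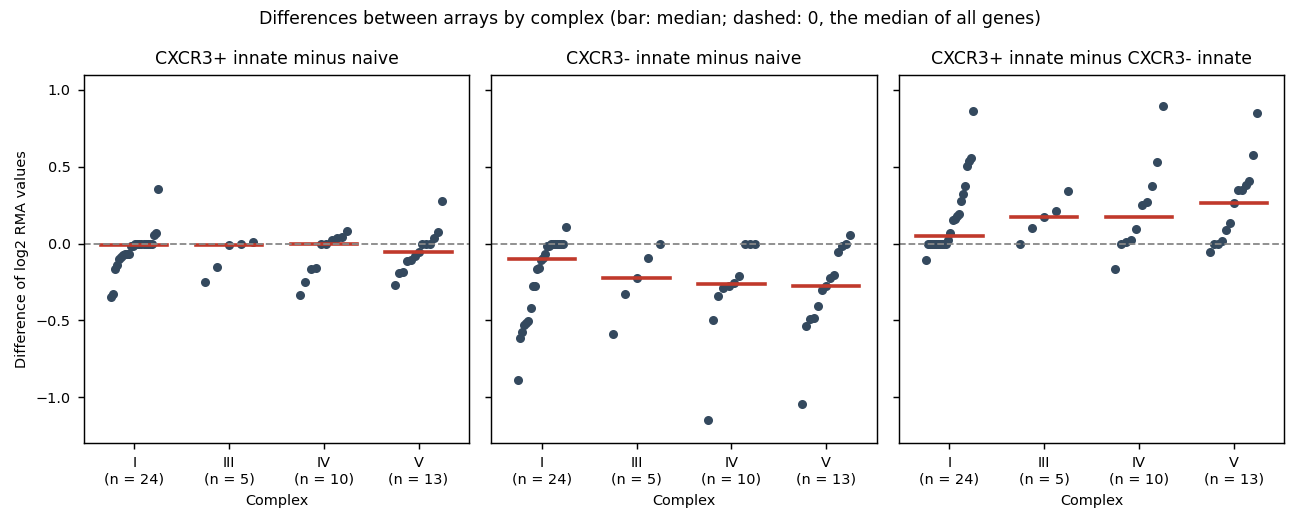
Difference of log2 RMA values (y axis) of each member by complex (x axis) in the 3 comparisons, with 1 point a gene; red bars are medians and the dashed line is 0, the median of all genes. In CXCR3- innate minus naive the medians are -0.10, -0.22, -0.26 and -0.27 for complexes I, III, IV and V, while in CXCR3+ innate minus naive they lie between -0.06 and 0. The complexes were not matched for level.

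In complex III, 4 of 5 members were lowest in CXCR3- innate cells and Uqcr11 was equal at 7.11 on all arrays. Uqcrh, the hinge protein that bridges cytochrome c1 and cytochrome c, read 7.71 on the CXCR3+ innate array, 7.37 on the CXCR3- innate array and 7.95 on the naive array. Its CXCR3- innate value was 1.5-fold below naive. Uqcrb, a small subunit near the quinone site, read 8.88, 8.71 and 9.03. The core protein Uqcrc2 read 8.83, 8.61 and 8.83 and its partner Uqcrc1 8.57, 8.47 and 8.56, so in both the CXCR3+ innate and naive values were within 0.02 of each other. For Uqcrc1, CXCR3- innate was 0.02 above naive after quantile normalization. The median of the complex was -0.22 in CXCR3- innate minus naive and -0.09 after quantile normalization.

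In complex IV, 7 of 10 members were lower in CXCR3- innate than in naive cells and 3 were equal, with a median of -0.26. Besides Cox7b, the largest difference was in Cox6a1, the isoform of subunit VIa made in most tissues, at 10.44, 9.90 and 10.40 in CXCR3+ innate, CXCR3- innate and naive cells. Cox6a2, the isoform of heart and muscle, was equal at 8.04. Cox4i1, the common isoform of the subunit through which ATP slows the enzyme, read 8.45, 8.07 and 8.36, whereas Cox4i2, its isoform of lung and low oxygen, read 7.70, 7.87 and 7.87. Cox4i2 was thus the only member of the complex in which CXCR3+ innate cells had the lowest value. Cox7c, another small subunit, read 7.35, 7.34 and 7.68, with both innate populations below naive cells. Cox7a2 read 7.21, 6.94 and 7.21. Cox8a was at -0.21 in CXCR3- innate minus naive, and Cox5b, which binds zinc, at 0. The supercomplex factor Cox7a2l was at -0.25.

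In complex V, 11 of 13 members were lower in CXCR3- innate than in naive cells, 1 was equal and 1, Atp5o, was higher by 0.06. The median was -0.27, and -0.16 after quantile normalization. In the catalytic head, Atp5b, the beta subunit that makes ATP, read 11.13, 10.99 and 11.40 in CXCR3+ innate, CXCR3- innate and naive cells, and its partner Atp5a1 read 8.96, 8.58 and 9.07. The gamma subunit Atp5c1, the rotating shaft, was equal at 7.06. In the peripheral stalk that holds the head still, Atp5pb read 8.08, 7.74 and 8.27 and Atp5h read 8.41, 8.0 and 8.49, while Atp5o stayed within 0.06 across the arrays. The ring subunits Atp5g2 and Atp5g3 were at -0.27 and -0.20 in CXCR3- innate minus naive. The small membrane subunits Atp5k and Atp5l were at -0.02 and -0.06, against -1.04 in Atp5md.

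Atp5e, the epsilon subunit of the head, was measured by 2 probe sets that disagreed. One was equal at 8.51 on all arrays, and the other read 7.44 on the CXCR3+ innate array, 6.28 on the CXCR3- innate array and 6.88 on the naive array. The latter differed by 1.16 between the innate populations, but its values lay below the array medians. Averaged, Atp5e was at 0.28 in CXCR3+ innate and -0.30 in CXCR3- innate cells relative to naive. Of the other members with 2 probe sets, Atp5g2 had both probe sets lowest in CXCR3- innate cells, at -0.41 and -0.14 relative to naive, and Atp5d had one at -0.44 and the other at 0.

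CXCR3+ innate cells differed little from naive cells in these genes. No member reached 2-fold in either direction, nor did any reach 1.5-fold, while 0.0981% of all genes were at least 2-fold lower and 0.137% higher. At 1.5-fold, 71 of all 10191 genes were lower and 51 higher, so few genes of any kind passed. Of the 52 members, 26 were lower, 11 higher and 15 equal, where 34.2% of all genes were lower and 20.7% higher. This balance turned with the scaling, to 26 lower and 25 higher after quantile normalization and 23 lower and 29 higher after centring. After cyclic loess 29 were lower and 23 higher. Differences of at least 0.1 were more often downward. They were downward in 15 members and upward in 2 as deposited, where 20.3% and 9.43% of all genes differed so. After quantile normalization, cyclic loess and centring they were downward in 12, 14 and 13 members and upward in 8, 4 and 3. The members' median was -0.0038, and 0.01 after each array was centred on its median, so no direction can be read from it. The differences ranged from -0.35 in Ndufs7 to 0.36 in Ndufa3. Cox7c was at -0.33, Ndufv2 at -0.33 and Atp5b at -0.27, with Atp5e at 0.28 on the other side.

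Between the innate populations, 35 members were higher in CXCR3+ than in CXCR3- innate cells, 3 were lower and 14 were equal, where 28.7% of all genes were higher and 22.3% lower. After quantile normalization 35 were higher and 16 lower, after cyclic loess 43 and 9, and after centring 34 and 18. Of all genes, 33.3%, 57.3% and 26.4% were higher in the same order, and 65.7%, 42.7% and 73.6% were lower. Differences of at least 0.1 were upward in 28 members and downward in 2 as deposited, and in 26 to 27 and 2 under these scalings. As deposited, 15.4% of all genes differed so upward and 9.09% downward. None reached 2-fold, which 0.147% of all genes did upward and 0.00981% downward. Cox7b at 0.90, Ndufa3 at 0.86 and Atp5md at 0.85 were the 3 members at least 1.5-fold higher, against 1.0% of all genes. Ndufv2 was at 0.56, Cox6a1 at 0.53 and Atp5h at 0.41. Ndufa8, Cox4i2 and Atp5o were the 3 lower ones, at -0.11, -0.17 and -0.06. The median of the members was 0.15, and by complex it was 0.05 for I, 0.18 for III, 0.17 for IV and 0.26 for V. With Ndufa4 counted in complex IV, the median was 0.09 for IV and 0.03 for I. This comparison and that of CXCR3- innate with naive cells share the CXCR3- innate array, so they are not independent.

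The size of a difference went with the level of the gene. Of the 25 members whose mean over the arrays was at least 8, 23 were lower in CXCR3- innate than in naive cells and the median was -0.29. Of the 3243 genes of that level 61.7% were lower, with a median of -0.08. Among the 27 members under 8, 15 were lower, 2 higher and 10 equal, and the median was -0.01. Of the 6948 genes of that level 24.4% were lower and 24.2% higher, with a median of 0. The 9 members that were equal on all 3 arrays read between 7.06 and 8.04. Whether the low values of the bright members go beyond the lower 90th percentile of the CXCR3- innate array was not tested.

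**Figure D4:**
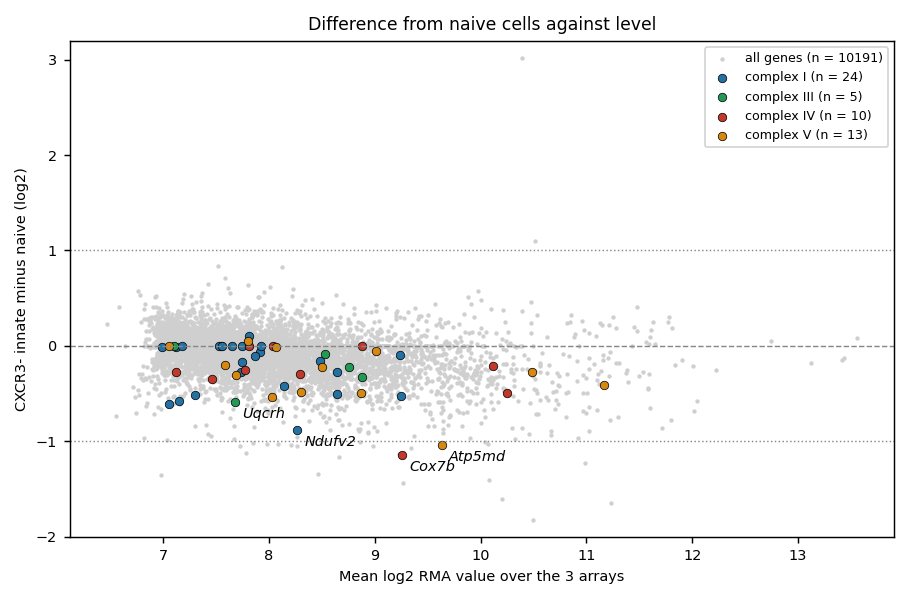
CXCR3- innate minus naive (y axis, log2) against the mean log2 RMA value over the 3 arrays (x axis) for all 10191 genes (grey) and for the members by complex (coloured); dotted lines mark 2-fold. Members at higher levels mostly lie below 0, as do many grey points at those levels, and Cox7b and Atp5md lie below the lower dotted line.

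Genes that work with the respiratory chain were examined next. In complex II, which feeds electrons from succinate and lies outside the symbol rule, 3 of 4 genes were measured. Sdha, its flavoprotein, read 8.50 on the CXCR3+ innate array, 8.44 on the CXCR3- innate array and 8.75 on the naive array, Sdhd was at -0.28 in CXCR3- innate minus naive, and Sdhc was equal. Of 17 listed subunits and carriers with other symbols, Cycs, Cyc1 and Atpif1 were measured under those symbols. The list includes Usmg5, an older symbol of the member Atp5md. Cycs, which is cytochrome c, read 8.57, 8.45 and 8.89, Cyc1 was at -0.25 in CXCR3- innate minus naive, and Atpif1, the inhibitor of the ATP synthase, was equal at 8.52. The subunits coded in mitochondrial DNA were not analysed here.

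Of 18 genes of the tricarboxylic acid cycle and pyruvate dehydrogenase, 15 were measured, and 10 were lower and 5 equal in CXCR3- innate against naive cells, with a median of -0.06. Cs, citrate synthase, read 9.23, 8.96 and 9.39 in CXCR3+ innate, CXCR3- innate and naive cells, Idh3b was at -0.41 and Mdh2 at -0.30. Among 23 measured carriers, import proteins and chaperones of 30 listed, 16 were lower and 2 higher, with a median of -0.15. Slc25a5, which exchanges ADP for ATP, was at -0.70, the chaperone Hspa9 at -0.61 and Phb2 at -0.55. The 2 higher genes were Timm8a1 at 0.40, with all values below the array medians, and Timm10b at 0.21. None of these genes was 2-fold lower, and Slc25a5 and Hspa9 were 1.5-fold lower by the rule with the level floor, as were 1.60% of all genes.

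Of the assembly factors and regulators, 40.0% and 53.8% reached the array median, against 76.9% of the members and 53.4% of all genes. Of 20 measured assembly factors of 45 listed, 8 were lower, 2 higher and 10 equal in CXCR3- innate minus naive, with a median of 0. Cox20, which helps to insert subunit 2 of complex IV, was at -0.58 and Cox16 at -0.34. Of 22 regulators of mitochondrial biogenesis, 13 were measured and 9 were equal on all arrays, Nrf1 at 7.93, Esrra at 7.94 and Polrmt at 7.52 among them. Yy1 read 8.79, 8.54 and 9.11 in CXCR3+ innate, CXCR3- innate and naive cells, a difference of -0.57 for CXCR3- innate minus naive. Of 19 glycolysis genes, 13 were measured, with a median of 0 and 6 below 0. The lactate transporter Slc16a1 was at -0.78, Pgk1 at -0.37 and Gapdh, at 10.03 on each array, at 0.

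Other large complexes were set beside these genes, with lists matched by symbol pattern. The cytosolic ribosomal list therefore also holds Rps19bp1 and Rps23rg1, which are no ribosomal proteins. In CXCR3- innate minus naive the median was -0.39 over the 51 genes of that list. It was -0.10 over 33 proteasome subunits and -0.03 over 31 mitochondrial ribosomal protein genes, beside -0.22 for the members. The CXCR3- innate array was the lowest in 40 of 51, 18 of 33 and 18 of 31 of them. Small nucleolar RNAs, which are no mRNAs, had a median of -0.49 over 58 genes. The CD8+ T cell markers had one of -0.52 over 5 genes, with Cd3g at -0.93. The part of overall array signal, RNA quality or cell content in the members' values was not tested, and no difference between the members and these groups was tested.

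**Figure D5:**
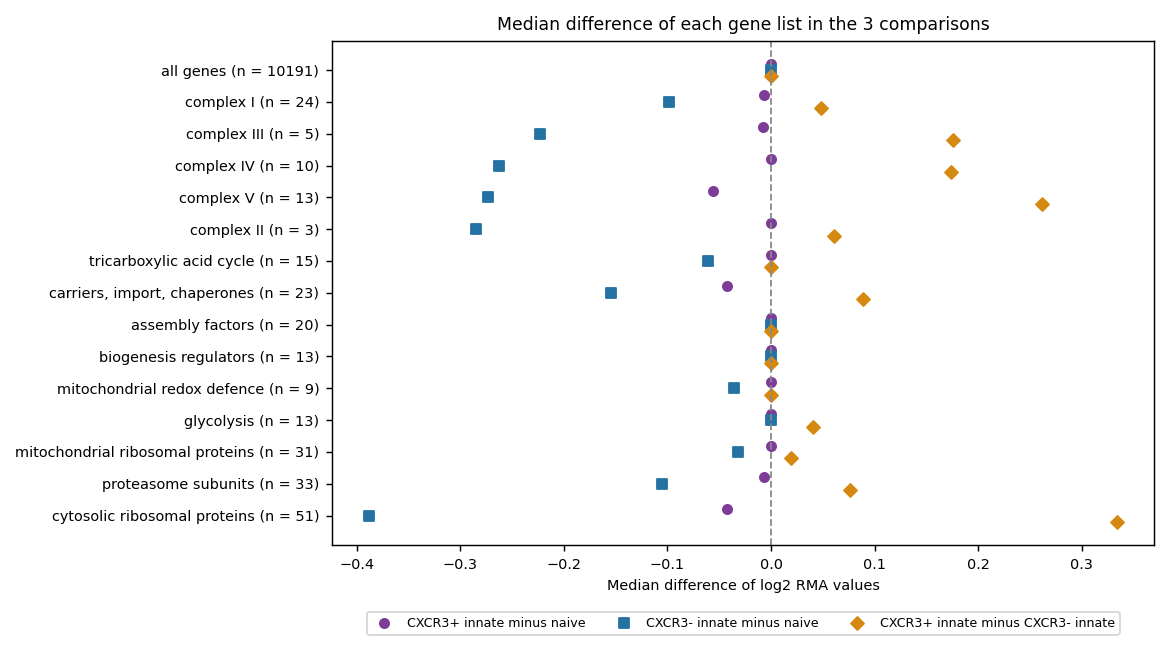
Median difference of log2 RMA values (x axis) of each gene group (y axis, with the number of measured genes) in CXCR3+ innate minus naive (circles), CXCR3- innate minus naive (squares) and CXCR3+ innate minus CXCR3- innate (diamonds); the dashed line is 0. Cytosolic ribosomal proteins lie farthest from 0, at -0.39 and 0.33, and complexes III, IV and V lie farther out than assembly factors and biogenesis regulators, whose medians are 0.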

How the data were processed

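The authors deposited log2 expression values for 3 arrays, which per the submitters' processing notes came from RMA as run in Affymetrix Expression Console. RMA corrects background, sets arrays to a common distribution and summarises probes by median polish, which can give equal values between arrays. No version, and no genome build for the array, is given in the sources used here. The table held 12417 probe sets, each with a highest value of at least 7.00002, of which 10576 had 1 symbol in the platform annotation, 1108 several and 733 none. The 52 members came from 56 probe sets, and probe sets of a gene were averaged, which gave 10191 genes. Groups were taken from the sample titles.

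With 1 array per group no test was possible. A gene was called when its log2 values differed by at least 1 and the higher was at or above that array's median over all genes. A median was said to move when it shifted by at least 0.1. Every member could be named. Given with all values were, in each complex, the members past the size rule, the 3 largest differences in each comparison and the highest and lowest means. In other lists, up to 3 genes with the largest differences in each comparison could be named. Not all of these were named, and many are given by 1 difference alone. Genes named outside this rule, which include Gapdh, Nrf1, Esrra, Polrmt and those equal on all arrays, were chosen after their values were seen. Some other members are given with all values too. The members and lists were chosen with earlier results of these data known, and the modules within complexes and the split at a mean of 8 after the values were seen. The alternatives were other scalings, an offset of 16, other treatment of probe sets, other members, thresholds and floors. The software was Python 3.11.15, numpy 2.4.6, pandas 2.3.3, matplotlib 3.10.9, R 4.3.3 and limma 3.58.1. The number of arrays limits the precision.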

Additional observations from a re-analysis of the deposited data

Results flagged for a closer look

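In 9 members the CXCR3+ innate array was above and the CXCR3- innate array below the naive array. The same held for 3.24% of all genes, and for 10 members and 8.10% of all genes after quantile normalization. With 1 array each this difference was not tested. The CXCR3+ innate minus CXCR3- innate difference was 0.86 in Ndufa3, 0.58 in Atp5e, 0.53 in Cox6a1, 0.38 in Cox4i1, 0.35 in Atp5g2, 0.26 in Atp5d, 0.25 in Cox8a, 0.16 in Ndufv1 and 0.10 in Uqcrc1. Only in Ndufa3, at 0.36, and Atp5e, at 0.28, was the CXCR3+ innate value more than 0.1 above the naive value. Neither probe set of Atp5d showed the pattern by itself, and Uqcrc1 lost it after quantile normalization. The value of Atp5e came from 1 of its 2 probe sets, which reached the level of 7 on the CXCR3+ innate array alone, while the other was equal on all arrays.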

How the results depend on the processing

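The members' median was below 0 in CXCR3- innate minus naive under each of 10 alternatives, from -0.25 to -0.11, the latter after quantile normalization. It was above 0 between the innate populations under each of 10, from 0.10 to 0.18. In CXCR3+ innate minus naive it ranged from -0.03 to 0.01 and had no stable sign. The count of members at least 2-fold lower in CXCR3- innate than in naive cells was 0 after quantile normalization, 1 after cyclic loess, 4 at 1.5-fold and 0 at 3-fold, and 3 members were higher between the innate populations at 1.5-fold. The CXCR3- innate array was the lowest in 31 to 37 of 52 members over the 5 other scalings and treatments of probe sets tried gene by gene, where it was the lowest in 18.2% to 42.0% of all genes. Complex V between the innate populations had a median of 0.14 with the probe set of highest mean, and complex I one of 0.16 over members at or above the array median. Scalings moved the median of all genes by at most 0.03. No paired analysis was possible because each population had 1 array, and no array could be left out.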

Other observations

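Probe sets that carry several symbols were kept apart from the members, since their signal cannot be assigned to 1 gene. The probe set of Cox6c and Gm6265, where Cox6c is a small subunit of complex IV, read 10.01 on the CXCR3+ innate array, 9.43 on the CXCR3- innate array and 10.18 on the naive array. That is a difference of -0.75 for CXCR3- innate minus naive. The probe set of Ndufb4 and its copies was at -0.26 in that comparison, and that of Ndufs5 and Ndufs5-ps at 0.01. Ndufs6 and Ndufs6b shared 2 probe sets, at -0.47 and 0.

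Of 10 genes of mitochondrial redox defence, 9 were measured. In CXCR3- innate minus naive 5 were lower and 4 equal, with a median of -0.04. Prdx3, the peroxiredoxin of the matrix, read 7.94 on the CXCR3+ innate array, 7.40 on the CXCR3- innate array and 7.75 on the naive array, and Sod2, the manganese superoxide dismutase, was at -0.16.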
